A study of Homo sapiens with 18 samples.

Results

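The 10 genes described here bring iron into red cell precursors, store it, release it from storage, export it or signal the demand for it. They were chosen by symbol from a deposited table of 13358 genes and all 10 were found, with a value in each of 18 libraries. TFRC, SLC11A2 and STEAP3 serve uptake, SLC25A37 serves mitochondrial import, FTH1, FTL and NCOA4 serve ferritin storage and its turnover, SLC40A1 and HEPH serve export, and ERFE is a hormone. The libraries were poly(A)-selected RNA from HUDEP1, an immortalised human erythroid progenitor line, taken from 3 clones in 2 conditions with 3 libraries each. Clone FL expresses full-length GATA1, a zinc finger factor that switches on the red cell programme, and clones 1D5 and 1KI9 express GATA1s, the short isoform without the N-terminal part. Cells in expansion grew in SFEM II with 1 µg/mL doxycycline, 1 µM dexamethasone, 50 ng/mL stem cell factor and 3 U/mL erythropoietin. Cells at day 4 of differentiation were in IMDM with 2% fetal bovine serum, 3% AB serum, 3 U/mL erythropoietin, 10 µg/mL insulin, 3 U/mL heparin, 1 mg/mL holo-transferrin (transferrin loaded with iron), 50 ng/mL stem cell factor and 1 µg/mL doxycycline. All groups thus had the same erythropoietin, stem cell factor and doxycycline, and holo-transferrin is listed as an addition only at day 4. The contents of SFEM II and IMDM themselves are not listed, so whether expansion cells also had it is not known here. Full-length GATA1 was represented by 1 clone, so genotype and clone cannot be told apart in any comparison with FL.

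Red cell precursors take up more iron than almost any other cell, because nearly all of it goes into the heme of hemoglobin. Iron-loaded transferrin binds the transferrin receptor (TFRC), the complex is taken into endosomes, STEAP3 reduces the iron, SLC11A2 (also called DMT1) moves it to the cytosol, and mitoferrin-1 (SLC25A37) carries it into mitochondria, where heme is made. Iron that is not used is held in ferritin, a shell of heavy (FTH1) and light (FTL) chains that NCOA4 delivers to lysosomes for breakdown, or leaves through ferroportin (SLC40A1) with the help of a ferroxidase such as hephaestin (HEPH). Several of these messages carry an iron-responsive element, a short hairpin bound by iron regulatory proteins when iron is low. In a 5′ UTR the bound protein blocks translation, and in the 3′ UTR of TFRC it protects the message from decay. Erythroferrone (ERFE) is secreted by precursors that respond to erythropoietin and lowers hepcidin, the liver hormone that closes ferroportin.

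The cores of these hairpins are shown because they mark members whose message amount, or whose translation, is a known point of control by iron. Each core is a C, 5 stem bases, a loop of 6 bases reading CAGTGN (capitals) and 5 bases that pair with the stem, G-U pairs included, read 5′ to 3′ on the gene's own strand from GRCh38 with GENCODE 29. In the 5′ UTRs searched, 24 of 13298 genes (0.18%) held such a core, among them FTH1 (chr11:61967580-61967596), FTL (chr19:48965341-48965357) and SLC40A1 (chr2:189580667-189580683). In the 3′ UTRs it was 135 of 13298 (1.015%), among them TFRC with 4 cores (chr3:196050985-196051001, chr3:196050581-196050597, chr3:196050516-196050532 and chr3:196050469-196050485). No other member held the pattern in these windows. The search was for 1 strict pattern, so a member without a match may still carry such a hairpin. A match is a description of letters, and the values below measure RNA only, not translation.
FTH1: cttcaaCAGTGCttgga
FTL: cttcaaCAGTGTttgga
SLC40A1: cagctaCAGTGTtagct
TFRC a: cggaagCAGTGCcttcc
TFRC b: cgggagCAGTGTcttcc
TFRC c: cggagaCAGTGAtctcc
TFRC d: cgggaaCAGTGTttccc
The FTH1 and FTL cores have the same stem and differ in the last loop base, which is the position written as N. The SLC40A1 core has another stem around the same loop.

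Expansion values are TPM (transcripts, corrected for length, per fixed total), so levels of different genes can be set side by side. Day-4 values are TPM with a further scaling whose method the sources used here do not give, so every day-4 value set against expansion is also a comparison across separately scaled parts. Depth is unknown. One library stood apart: FL expansion replicate 1 had 10.63% of its summed values in globin genes, against 5.55% and 5.73% in the other FL expansion libraries, and it had the highest TFRC, SLC25A37 and ERFE of that group. The members' calls against FL in expansion are therefore also given without it, as are some of the member values it changes. The counts for marker and other gene lists in expansion all include it. All 12 erythroid markers of a chosen list were in the table, and none had a group mean under 3.25. The share of globins at day 4 was 38.21 to 39.37% in FL, 19.29 to 20.57% in 1D5 and 12.43 to 13.29% in 1KI9. Of 12 monocyte and macrophage markers 7 were in the table, and their summed value at day 4 was 44.9 to 48.4 in FL, 336.5 to 357.3 in 1D5 and 410 to 433.4 in 1KI9, most of it CD68. In expansion that sum was 14.7 to 52.2, 59.6 to 73.4 and 226.3 to 269.5 in the same order. CSF1R, which defines the lineage, was at a mean of 0.247 or less in every group, and CD14 was not among the 7 in the table. Of 6 monocyte and macrophage markers tested against FL, 5 were called higher in both clones in each condition, and of 6 mast cell and basophil markers 2 were in expansion and 5 at day 4. Of 3 megakaryocyte markers it was 2 and 1, while of the 12 erythroid markers 6 were lower in expansion and 12 at day 4. HPGDS, of the mast cell list, lay below FL in 1D5, by -2.99 (log2) in expansion and -2.71 at day 4. In 1KI9 it was at -0.41 and -0.47, without a call. TYROBP, FCGR2A, FCER1A, HDC and ITGA2B had FL means under 1 in both conditions. They passed the filter on low values (at least 1 in 3 or more libraries) through the GATA1s clones, so a higher value was built into their being tested. Of all genes, 17.5% were higher and 8.98% lower in expansion and 51.2% and 14.3% at day 4. The part of these markers in the results below was not tested. In bulk RNA, fewer cells of a type and less RNA per cell cannot be told apart. The gene total of GATA1 was 143 to 168 in FL and 614 to 680 in the GATA1s clones in expansion, and 221 to 236 and 901 to 1102 at day 4. It does not separate the isoforms, so it does not check the labels.

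In expansion the receptor, the endosomal reductase and the mitochondrial importer were modestly lower in both GATA1s clones, the hormone ERFE was lower and HEPH and NCOA4 were higher. A gene was called when 1D5 and 1KI9 each differed from FL with the same sign (limma on log2(value + 1), Benjamini-Hochberg adjusted p under 0.05 over all genes tested). TFRC, SLC25A37, STEAP3 and ERFE were called lower, 4 of 10, where 8.98% of all 11042 genes tested were. ERFE passed the filter on low values through its FL libraries, and without it the count is 3 of 9. HEPH and NCOA4 were called higher, 2 of 10, where 17.5% of all genes were. The median log2 difference was 0.17 over the 10 members and 0.06 over all genes. When libraries were scaled by the median of gene ratios, 14.8% of all genes were higher and 15.5% lower, and the members again split as 2 and 4. With equal sums they split as 3 and 3, since TFRC in 1D5 lost its call (-0.36, adjusted p = 0.052) and FTL in 1D5 gained one (0.20, adjusted p = 0.0421). Without FL expansion replicate 1, the lower calls were STEAP3 and ERFE only (2), and the higher calls were FTL, HEPH and NCOA4 (3). STEAP3 was then at -0.24 (adjusted p = 0.0457) and -0.46 (adjusted p = 2.64e-04) in 1D5 and 1KI9, NCOA4 at 0.38 and 0.85, and HEPH at 3.70 and 4.81. Leaving out 1D5 expansion replicate 1 (TFRC and SLC25A37 lost) or replicate 3 (TFRC and STEAP3 lost) also left 2 lower calls, and a fit on the compared libraries alone called ERFE lower (1) and HEPH higher (1).

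At day 4 the uptake chain was lower at every step in both GATA1s clones, and the export ferroxidase was far higher. TFRC, SLC11A2, STEAP3, SLC25A37, ERFE and NCOA4 were called lower, 6 of 10, where 14.3% of all 11083 genes tested were (5 of 9 without ERFE). FTL and HEPH were called higher, 2 of 10, where 51.2% of all genes were. The median log2 difference was -0.72 over the members and 0.29 over all genes. That median of all genes moved to -0.01 when libraries were scaled by the median of gene ratios and to 0.55 when their sums were made equal, and less 0.29 the mean of the clones is given below. With the median-of-ratios scaling 26.4% of all genes were called higher and 31% lower, and the members split as 1 higher (HEPH) and 7 lower, SLC40A1 having joined the lower group and FTL having left the higher one. With equal sums the split over all genes was 69% and 7.93%, and NCOA4 left the lower group, which then held 5. With globins left out it was 39.2% and 19.4%, with 2 members higher and 6 lower.

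**Figure D1:**
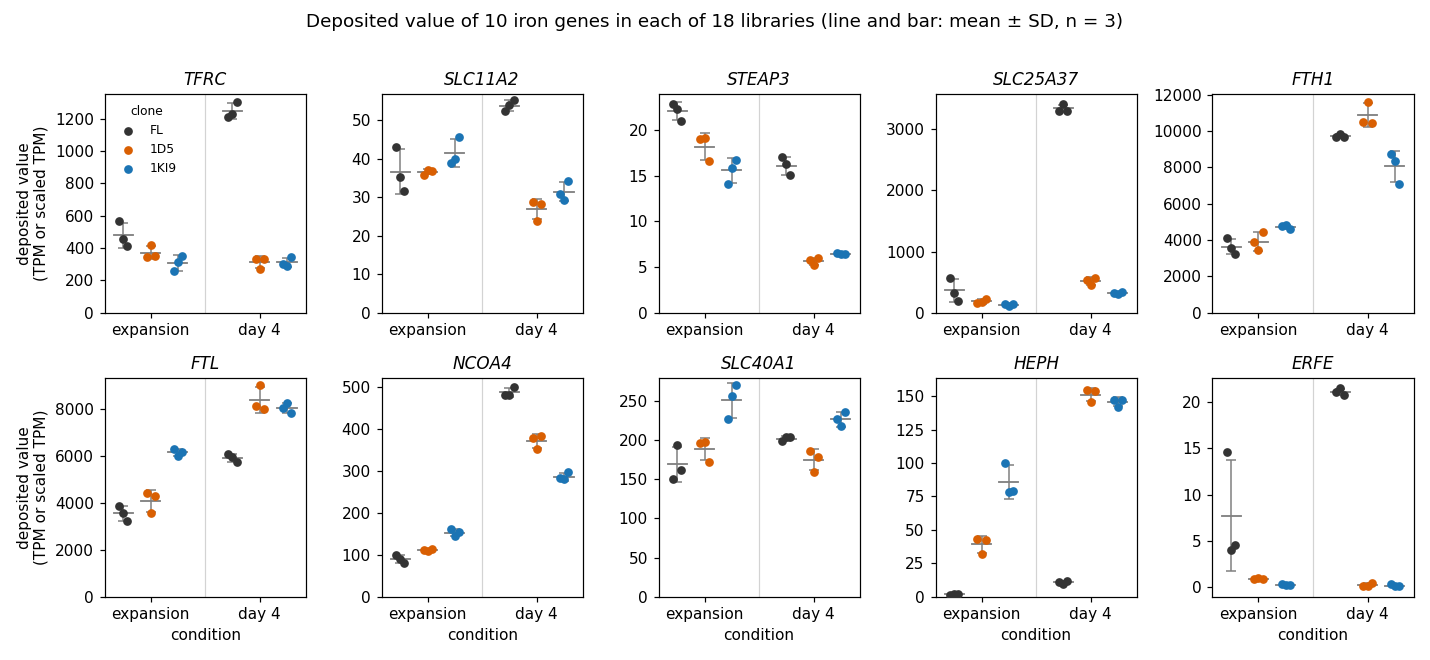
Deposited value (linear axis, TPM in expansion and scaled TPM at day 4) of each of the 10 genes in all 18 libraries, by condition and clone, with each point a library and the line and bar the mean ± SD of 3. The 3 FL libraries at day 4 stand far above both GATA1s clones for TFRC and SLC25A37 and far below them for HEPH.

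TFRC (chr3:196027183-196082189, hg38) is the gate for transferrin iron, and its FL level at day 4 stood apart from the other 5 groups. In expansion the FL libraries were at 566, 454 and 414 TPM, those of 1D5 at 342, 418 and 352, and those of 1KI9 at 255, 315 and 350.1. The ranges of 1D5 and FL overlapped slightly, and all of 1KI9 lay below FL. On the log2 scale 1D5 differed from FL by -0.36 ± 0.12 (SE, limma adjusted p = 0.0336) and 1KI9 by -0.64 ± 0.12 (adjusted p = 2.31e-04). Without FL expansion replicate 1 they were -0.23 (adjusted p = 0.159) and -0.51 (adjusted p = 0.00177). At day 4 FL stood at 1207, 1229 and 1300.2, 1D5 at 333, 269 and 331, and 1KI9 at 302, 289 and 341. No GATA1s library came near FL, and the 2 clones covered the same range. FL was 4.01-fold above each clone, and the log2 differences were -2.00 ± 0.12 (adjusted p = 1.20e-10) and -2.00 ± 0.12 (adjusted p = 8.32e-11), or -2.30 for their mean less the median of all genes. Across the separately scaled conditions, the order of the 6 groups by mean ran from 1KI9 in expansion through both clones at day 4 to 1D5 in expansion, FL in expansion and FL at day 4. Neighbours in this order overlapped except between 1D5 at day 4 and in expansion and between FL in expansion and at day 4.

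SLC11A2 (chr12:50979401-51028566), the endosomal iron transporter, passed the test against FL at day 4 and not in expansion. It ranged from 31.6 to 43.1 TPM in FL, 35.8 to 37.1 in 1D5 and 38.9 to 45.6 in 1KI9 in expansion, and these ranges overlapped with FL. The differences there were 0.01 ± 0.10 (limma adjusted p = 0.959) and 0.18 ± 0.10 (adjusted p = 0.107), and without FL expansion replicate 1 the latter was 0.30 (adjusted p = 0.00636). At day 4 the FL libraries were at 52.2, 53.8 and 55.2, those of 1D5 at 28.7, 23.8 and 28.2, and those of 1KI9 at 30.8, 29.4 and 34.0. Both clones lay wholly below FL, by -0.98 ± 0.10 (adjusted p = 6.13e-08) and -0.76 ± 0.10 (adjusted p = 1.16e-06) on the log2 scale. Their mean less the median of all genes was -1.16. The ratio of SLC11A2 to TFRC within a library averaged 0.0432 in FL at day 4, against 0.0866 for 1D5 and 0.101 for 1KI9, so the transporter was less far below FL than the receptor was.

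STEAP3 (chr2:119223831-119265652), the endosomal ferrireductase, was lower in both clones in both conditions. In expansion it ranged from 21.0 to 22.9 TPM in FL, 16.6 to 19.2 in 1D5 and 14.1 to 16.7 in 1KI9. Neither clone overlapped FL, and the log2 differences were -0.26 ± 0.08 (limma adjusted p = 0.0157) and -0.48 ± 0.08 (adjusted p = 4.02e-05). At day 4 FL was at 17.02, 16.3 and 15.1, 1D5 at 5.73, 5.23 and 5.97, and 1KI9 at 6.58, 6.41 and 6.38. Both clones lay wholly below FL, which was 2.86-fold above 1D5 and 2.5-fold above 1KI9, with log2 differences of -1.37 ± 0.08 (adjusted p = 4.77e-11) and -1.20 ± 0.08 (adjusted p = 1.81e-10), or -1.58 for their mean less the median of all genes.

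SLC25A37 (chr8:23528805-23575463), the mitochondrial iron importer of red cell precursors, was further below FL at day 4 than TFRC, SLC11A2 and STEAP3 by the mean of the clones. In expansion the FL libraries spread widely, at 569.6, 322 and 199 TPM, while 1D5 was at 155, 179.8 and 230.4 and 1KI9 at 138, 112 and 137. The lowest FL library lay within the range of 1D5 and above all of 1KI9. The log2 differences were -0.83 ± 0.24 (limma adjusted p = 0.0123) and -1.36 ± 0.24 (adjusted p = 8.34e-05), and without FL expansion replicate 1 they were -0.44 (adjusted p = 0.0549) and -0.97 (adjusted p = 1.10e-04). At day 4 FL stood at 3306, 3413 and 3305, 1D5 at 542, 450.1 and 559.9, and 1KI9 at 324, 301 and 339.6. The 3 groups did not overlap, with FL 6.46-fold above 1D5 and 10.4-fold above 1KI9. The log2 differences were -2.69 ± 0.24 (adjusted p = 1.52e-08) and -3.37 ± 0.24 (adjusted p = 5.10e-10), and their mean less the median of all genes was -3.33. By size that mean was the 28th lowest of 11083 genes, and that of TFRC the 113th.

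**Figure D2:**
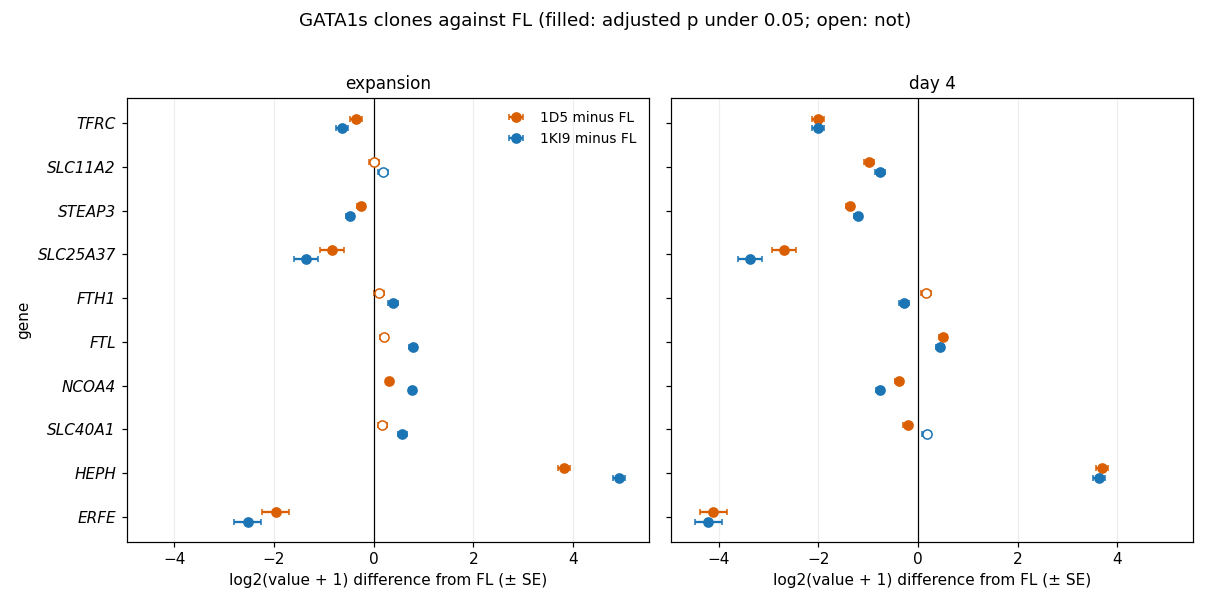
Log2(value + 1) difference of each GATA1s clone from FL (horizontal axis, ± SE, limma) for the 10 genes in expansion and at day 4, filled where the adjusted p was under 0.05. The day-4 points of TFRC lie at -2.00 in both clones, those of SLC25A37 at -2.69 and -3.37, those of HEPH at 3.70 and 3.64 and those of ERFE at -4.11 and -4.21.

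The ferritin messages were not called lower in both clones in either condition. FTH1 (chr11:61959718-61967660) and FTL (chr19:48965301-48966878) were the most abundant messages of the 10, and RSEM divides reads among similar transcripts, so their values are uncertain because both have many processed pseudogenes. FTL, the light chain, ranged in expansion from 3205 to 3862 TPM in FL, 3559 to 4412 in 1D5 and 5979 to 6298 in 1KI9, so 1D5 overlapped FL and 1KI9 lay above both. On the log2 scale the differences were 0.20 ± 0.08 (limma adjusted p = 0.0718) and 0.79 ± 0.08 (adjusted p = 1.77e-07). The first passed the threshold without FL expansion replicate 1 (0.26, adjusted p = 0.024) or 1D5 expansion replicate 2 (0.30, adjusted p = 0.00997). At day 4 the FL libraries were at 6054, 5924 and 5711, those of 1D5 at 8109, 9015 and 7991, and those of 1KI9 at 8022, 8259 and 7817. Every GATA1s library exceeded every FL library, with log2 differences of 0.50 ± 0.08 (adjusted p = 2.88e-05) and 0.45 ± 0.08 (adjusted p = 8.57e-05). With the median-of-ratios scaling these fell short of the threshold, at 0.17 (adjusted p = 0.171) and 0.06 (adjusted p = 0.64), and less the median of all genes their mean was 0.18.

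FTH1, the chain with ferroxidase activity, had no call shared by the 2 clones in either condition. It ranged in expansion from 3245 to 4090 TPM in FL, 3424 to 4461 in 1D5 and 4604 to 4817 in 1KI9, with log2 differences of 0.10 ± 0.10 (limma adjusted p = 0.45) and 0.39 ± 0.10 (adjusted p = 0.0026). The latter lost its call with the median-of-ratios scaling (adjusted p = 0.249). At day 4 the range was 9656 to 9859 in FL, 10456 to 11625 in 1D5 and 7104 to 8724 in 1KI9, without overlap with FL. The differences were 0.16 ± 0.10 (adjusted p = 0.158) and -0.28 ± 0.10 (adjusted p = 0.0163), the latter -0.19 (adjusted p = 0.108) without 1KI9 day-4 replicate 3. Their mean, -0.06, was 0.23 (adjusted p = 0.00706) with equal sums and -0.42 (adjusted p = 0.00233) with the median-of-ratios scaling, so no direction for FTH1 against FL at day 4 held under every scaling. By clone, both were below FL with the median-of-ratios scaling (-0.18 and -0.66) and above it with equal sums (0.40 and 0.06), and less the median of all genes the mean was -0.35. The ratio of FTH1 to FTL within a library is unchanged by a scaling with 1 factor per library, which is not known for day 4. It was 1.02 in FL, 0.96 in 1D5 and 0.772 in 1KI9 in expansion, and 1.65, 1.30 and 1.00 at day 4 (means of 3). Across day-4 libraries this ratio was lowest in 1KI9 (0.909 to 1.09) and highest in FL (1.59 to 1.69), with the 1D5 libraries between them and no overlap.

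NCOA4 (chr10:46005088-46030714), the receptor that delivers ferritin to lysosomes, was called above FL in both clones in expansion and below FL in both at day 4. In expansion FL was at 99.9, 89.2 and 80.5 TPM, 1D5 at 110.4, 109 and 114, and 1KI9 at 162, 145 and 153. The 3 groups did not overlap and 1KI9 was farthest from FL, with log2 differences of 0.31 ± 0.07 (limma adjusted p = 0.00168) and 0.77 ± 0.07 (adjusted p = 1.45e-08). At day 4 FL was at 481, 481 and 500.2, 1D5 at 379, 351 and 383, and 1KI9 at 282, 280.1 and 297. The order was now the reverse, again without overlap, with differences of -0.39 ± 0.07 (adjusted p = 3.75e-05) and -0.77 ± 0.07 (adjusted p = 7.75e-09), or -0.87 for their mean less the median of all genes. With equal sums the day-4 difference of 1D5 was -0.15 (adjusted p = 0.0841) and that of 1KI9 was -0.42 (adjusted p = 4.76e-05). Relative to FTH1 in the same library, NCOA4 averaged 0.0501 in FL at day 4, with 0.0343 for 1D5 and 0.0359 for 1KI9, against 0.0247, 0.0286 and 0.0324 in expansion.

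**Figure D3:**
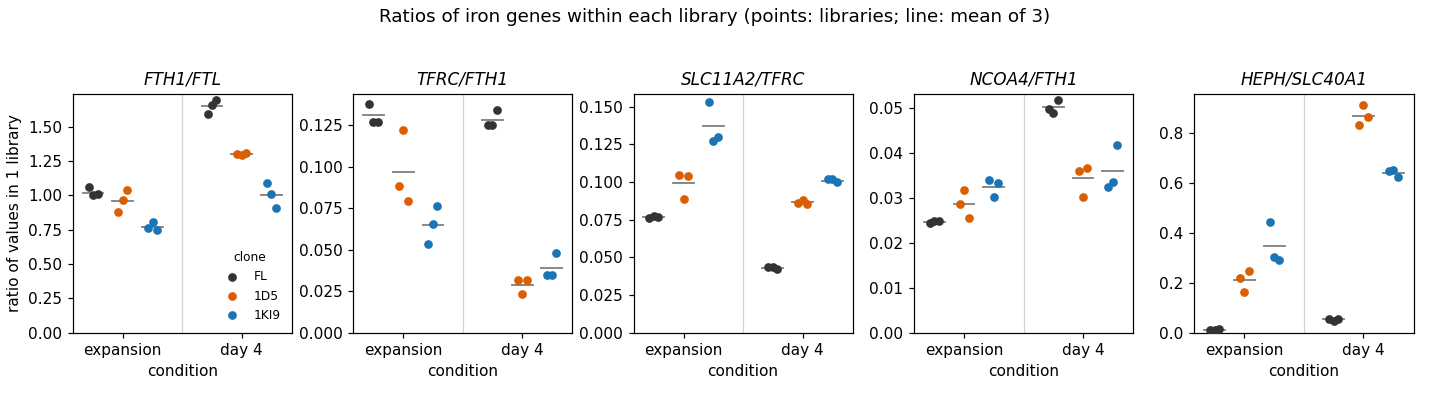
Ratio of the values of gene pairs within each library (linear axes from 0, no unit), by condition and clone, with each point a library and the line the mean of 3. TFRC relative to FTH1 was 0.128 in FL at day 4 and 0.0288 and 0.0391 in the GATA1s clones, and HEPH relative to SLC40A1 was 0.0532, 0.868 and 0.641.

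SLC40A1 (chr2:189560579-189583758), the only known iron exporter of mammalian cells, varied little beside its partner HEPH. It ranged in expansion from 151 to 194 TPM in FL, 173 to 198 in 1D5 and 227 to 271 in 1KI9. All libraries of 1KI9 lay above FL, and 1D5 overlapped it. The log2 differences were 0.17 ± 0.09 (limma adjusted p = 0.159) and 0.57 ± 0.09 (adjusted p = 1.75e-05). Without FL expansion replicate 2 the first was 0.27 (adjusted p = 0.0164). At day 4 it ranged from 199 to 204 in FL, 160 to 186 in 1D5 and 218 to 237 in 1KI9, with differences of -0.21 ± 0.09 (adjusted p = 0.0346) and 0.17 ± 0.09 (adjusted p = 0.0877). The mean of the clones at day 4, -0.02, was 0.27 (adjusted p = 0.00598) with equal sums and -0.38 (adjusted p = 4.66e-06) with the median-of-ratios scaling, so its direction also turned with the scaling, and less the median of all genes it was -0.32. The call of 1D5 at day 4 was lost without any 1 of the FL day-4 libraries or without 1D5 day-4 replicate 2 or 3 (adjusted p = 0.051 to 0.156).

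HEPH (chrX:66162549-66268867), a copper ferroxidase best known from the intestine, was low in FL and many times higher in the GATA1s clones. In expansion FL was at 1.40, 2.02 and 2.12 TPM, 1D5 at 43.1, 32.1 and 42.8, and 1KI9 at 100.3, 78.2 and 79.1. All 6 GATA1s libraries lay far above FL, 21.3-fold for the mean of 1D5 and 46.5-fold for that of 1KI9, and the clones did not overlap each other. The log2 differences were 3.82 ± 0.12 (limma adjusted p = 2.79e-14) and 4.93 ± 0.12 (adjusted p = 3.04e-16). At day 4 FL was at 11.1, 9.61 and 11.5, 1D5 at 154, 145.5 and 154, and 1KI9 at 148, 142 and 147. The GATA1s libraries were again far above FL, 14.1-fold and 13.5-fold, and the clones now overlapped. On the log2 scale the differences were 3.70 ± 0.12 (adjusted p = 2.07e-14) and 3.64 ± 0.12 (adjusted p = 2.18e-14), or 3.38 for their mean less the median of all genes. By the mean of the clones HEPH was the 6th highest of 11042 genes in expansion and the 17th highest of 11083 at day 4. Relative to SLC40A1 in the same library, HEPH averaged 0.0109 in FL in expansion and 0.21 and 0.347 in the clones. The summed monocyte and macrophage markers given above were ordered as HEPH was in expansion. At day 4 the sum was higher in 1KI9 than in 1D5, while the HEPH values of the clones overlapped. The part of these markers in the HEPH difference was not tested.

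ERFE (chr2:238158982-238168900), the erythroid hormone, was at the other extreme. In expansion FL was at 14.7, 4.01 and 4.54 TPM, 1D5 at 0.86, 1.00 and 0.93, and 1KI9 at 0.35, 0.29 and 0.30. FL expansion replicate 1 was above the other FL libraries, and every GATA1s library lay below all 3. The log2 differences were -1.97 ± 0.27 and -2.53 ± 0.27 (SE), and without that library -1.45 and -2.00. At day 4 FL was at 21.1, 21.5 and 20.8, 1D5 at 0.19, 0.18 and 0.50, and 1KI9 at 0.34, 0.11 and 0.15. FL was 72.9-fold above the mean of 1D5 and 106-fold above that of 1KI9, while the values of the clones were too low for their order to be read. These folds rest on values under 1 and moved to 114 without 1D5 day-4 replicate 3 and to 163 without 1KI9 day-4 replicate 1. The log2 differences were -4.11 ± 0.27 and -4.21 ± 0.27, or -4.45 for their mean less the median of all genes, and adding 1 before the logarithm understates them. With 0.1 added they were -5.86 and -6.22. ERFE passed the filter on low values through its FL libraries, so a difference from FL was built into its being tested, and the differences given here are a description with no test.

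Because HEPH and ERFE lay at opposite ends and GATA1 is a DNA-binding factor that reads GATA letters, the bases before their start sites are shown, from RefSeq on GRCh38.p14. RefSeq windows matched 8 of the 10 members. The letters AGATAA and TGATAA were searched on both strands in the 250 bases before each start site. They were found at 3 of 14 member start sites (21.4%) and at 5113 of 35116 start sites of all RefSeq genes (14.56%). HEPH held them at 2 of its 3 start sites, at base -130 (chrX:66163997-66164246, + strand) and at base -126 (chrX:66162421-66162670, + strand), and SLC11A2 at 1 of 4, at base -64. By gene it was 2 of 8 members (25%), beside 11.3% of the 10305 genes of the table that had a window and 17.5% of all 27305 RefSeq genes. A gene counted if any of its start sites held a match, so genes with more start sites had more chances. The ERFE window (chr2:238158720-238158969, + strand) held none. Each window with the letters held them once, so no matches overlapped, and capitals mark the match.
HEPH start a: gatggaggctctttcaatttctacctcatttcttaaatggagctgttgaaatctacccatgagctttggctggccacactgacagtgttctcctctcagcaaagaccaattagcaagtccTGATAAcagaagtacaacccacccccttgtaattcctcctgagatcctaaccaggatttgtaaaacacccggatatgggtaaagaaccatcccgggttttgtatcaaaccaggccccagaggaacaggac
HEPH start b: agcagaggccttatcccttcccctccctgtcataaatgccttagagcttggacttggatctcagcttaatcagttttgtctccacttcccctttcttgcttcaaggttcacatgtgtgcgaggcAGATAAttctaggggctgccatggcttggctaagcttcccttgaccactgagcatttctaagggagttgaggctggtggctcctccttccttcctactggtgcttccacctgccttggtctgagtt
ERFE: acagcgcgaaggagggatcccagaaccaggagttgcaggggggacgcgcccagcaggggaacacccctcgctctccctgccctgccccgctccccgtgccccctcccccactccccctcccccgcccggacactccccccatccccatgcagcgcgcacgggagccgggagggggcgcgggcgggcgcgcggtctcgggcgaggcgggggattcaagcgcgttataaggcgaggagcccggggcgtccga
These letters are a description of the windows, and no binding was measured.

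The GATA1s clones also differed from each other. In expansion 1KI9 was above 1D5 for FTH1, FTL, SLC40A1, HEPH and NCOA4, 5 of 10 members, where 33.4% of all genes were. STEAP3 was lower, 1 of 10, where 7.16% of all genes were, at -0.22 ± 0.08 (limma adjusted p = 0.0328). The STEAP3 call was lost without 1D5 expansion replicate 1 or 2 or 1KI9 expansion replicate 1 or 2 (adjusted p = 0.0529 to 0.156), and the FTH1 call without 1D5 expansion replicate 1 or 2 or any 1 of the 1KI9 expansion libraries (adjusted p = 0.0504 to 0.167). HEPH differed most, 2.18-fold between the means, with a log2 difference of 1.11 ± 0.12 (adjusted p = 7.43e-07), followed by FTL at 0.59 ± 0.08 (adjusted p = 1.63e-05). Without FL expansion replicate 1, which enters only the shared variance, TFRC (-0.28, adjusted p = 0.0463) and SLC25A37 (-0.53, adjusted p = 0.00922) were also called lower in 1KI9. ERFE, at -0.56, passed the threshold there too, but it ranged from 0.86 to 1.0 in 1D5 and 0.29 to 0.35 in 1KI9. These values lie at or under 1 and ERFE passed the filter through FL, so its difference is a description. With the median-of-ratios scaling the members split as 4 higher and 3 lower, and all genes as 19.3% higher and 25.8% lower. At day 4 SLC40A1 was higher in 1KI9, 1 of 10 where 12.5% of all genes were, at 0.38 ± 0.09 (adjusted p = 0.00464). FTH1, at -0.43 ± 0.10 (adjusted p = 0.00443), and NCOA4, at -0.37 ± 0.07 (adjusted p = 5.71e-04), were lower, 2 of 10 where 6.69% of all genes were. SLC25A37 missed the threshold there at -0.68 ± 0.24 (adjusted p = 0.0525), and passed it with the median-of-ratios scaling at -0.73 (adjusted p = 0.0477). Over all genes that scaling gave 10.4% higher and 10.1% lower at day 4, and equal sums gave 24.3% and 4.29%, with SLC11A2, STEAP3 and SLC40A1 (3) higher and FTH1 and NCOA4 (2) lower.

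Between expansion and day 4 almost the whole set rose in FL, with values compared across the separately scaled conditions. In FL, 9 of 10 members rose, where 26.5% of all 11015 genes tested did, and STEAP3 fell, 1 of 10 where 57.2% of all genes fell. The median log2 change was 1.41 over the members and -0.38 over all genes. The largest changes were those of SLC25A37 (9.19-fold between the means), HEPH (5.82-fold) and NCOA4 (5.42-fold), with ERFE at 2.73-fold (4.94-fold without FL expansion replicate 1), FTH1 at 2.67-fold and TFRC at 2.61-fold. In 1D5, 5 members rose (31.9% of all genes) and 2 fell (47% of all genes). In 1KI9, 5 rose (22.2% of all genes) and 2 fell (52.2% of all genes). In both clones the 5 were SLC25A37, FTH1, FTL, HEPH and NCOA4, and the 2 were SLC11A2 and STEAP3. With the median-of-ratios scaling the median of all genes was within 0.02 of 0 in each clone, STEAP3 in FL stood at 0.02 and SLC11A2 in 1KI9 at -0.10, and neither was then called, while TFRC in 1KI9 (0.32, adjusted p = 0.0209) and SLC40A1 in 1KI9 (0.16, adjusted p = 0.0307) were called higher. That scaling gave 41.9% higher and 40.3% lower over all genes in FL, 39.7% and 39.8% in 1D5, and 37.5% and 35.6% in 1KI9. With globins left out these were 39.9% and 41.2%, 45.2% and 33.2%, and 36.8% and 34%, and equal sums gave 29.3% and 41.6% in 1KI9. Without FL expansion replicate 1, SLC40A1 lost its call in FL and 8 members rose there.

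The receptor and its endosomal partner differed in how they changed from clone to clone, by the interaction given below. The mean of TFRC at day 4 was 2.61-fold its expansion mean in FL, 0.838-fold in 1D5 and 1.01-fold in 1KI9, with log2 changes of 1.39 ± 0.12 (limma adjusted p = 4.65e-09), -0.26 ± 0.12 (adjusted p = 0.0654) and 0.03 ± 0.12 (adjusted p = 0.848). SLC11A2 rose in FL by 0.55 ± 0.10 (adjusted p = 3.23e-05) and fell in 1D5 by -0.43 ± 0.10 (adjusted p = 4.42e-04) and in 1KI9 by -0.39 ± 0.10 (adjusted p = 0.00126). With globins left out the change in 1D5 was -0.13 (adjusted p = 0.317). In 1KI9 it was -0.10 (adjusted p = 0.35) with the median-of-ratios scaling, -0.23 (adjusted p = 0.0716) with equal sums and -0.09 (adjusted p = 0.472) with globins left out. SLC25A37 rose in all 3 clones, by 3.33 ± 0.24 in FL, 1.47 ± 0.24 in 1D5 and 1.32 ± 0.24 in 1KI9, which is 9.19-fold, 2.75-fold and 2.49-fold between the means.

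**Figure D4:**
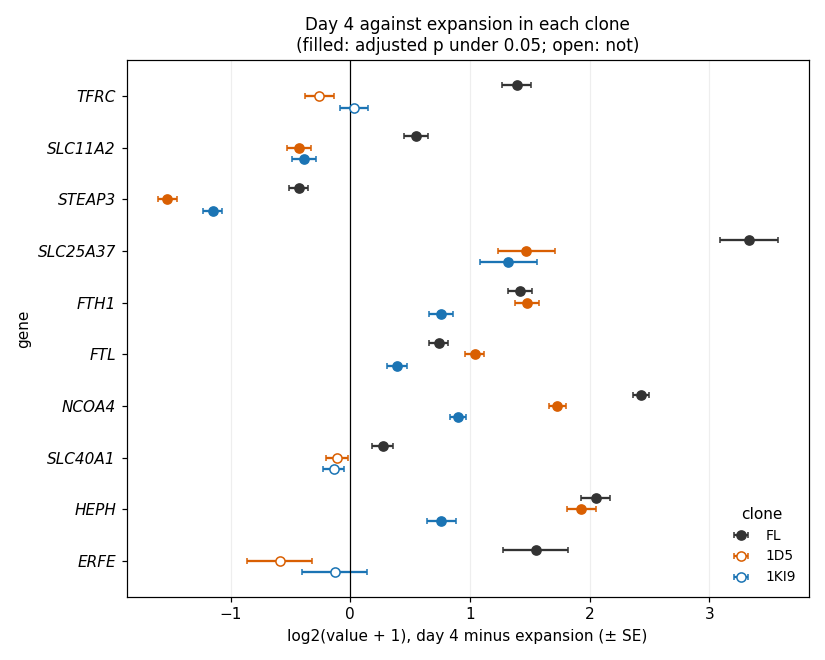
Log2(value + 1) change from expansion to day 4 (horizontal axis, ± SE, limma) of the 10 genes in each clone, filled where the adjusted p was under 0.05. The TFRC point of FL lies at 1.39, that of 1D5 at -0.26 and that of 1KI9 at 0.03, and every clone lies above 0 for SLC25A37, FTH1, FTL, NCOA4 and HEPH.

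Whether the difference between GATA1s and FL itself changed was tested as an interaction, the mean of the clones minus FL at day 4 less the same in expansion. It was called lower for 9 of 10 members, where 19.7% of all 11015 genes were, and higher for 0 members, where 45.4% of all genes were. The remaining member, FTL, was at -0.02 ± 0.10 (limma adjusted p = 0.854), a mean over opposite calls of 0.30 ± 0.12 (adjusted p = 0.0323) in 1D5 and -0.35 ± 0.12 (adjusted p = 0.0147) in 1KI9. The 1D5 call was lost without FL expansion replicate 1 or 2 or FL day-4 replicate 2 or 3 (adjusted p = 0.0518 to 0.0758). It was also lost without replicate 2 of 1D5 in expansion (adjusted p = 0.105) or at day 4 (adjusted p = 0.0722). With the median-of-ratios scaling the 1D5 call was lost too (adjusted p = 0.996), and with equal sums that of 1KI9 (adjusted p = 0.923). The interaction of the mean was -1.94 ± 0.29 for SLC25A37, -1.91 ± 0.33 for ERFE, -1.51 ± 0.15 for TFRC, -1.12 ± 0.08 for NCOA4, -0.96 ± 0.12 for SLC11A2 and -0.91 ± 0.10 for STEAP3. ERFE, counted among the 9, passed the filter on low values through its FL libraries, so its value is a description. HEPH was at -0.70 ± 0.14, and by clone it was -1.29 ± 0.17 (adjusted p = 3.68e-06) for 1KI9 and -0.12 ± 0.17 (adjusted p = 0.544) for 1D5. Since HEPH had a mean of 1.85 in FL in expansion, the amount added before the logarithm matters, and with 0.1 the mean was -1.13 and the value of 1D5 was -0.54 (adjusted p = 0.0233). SLC40A1 (-0.39 ± 0.11) and FTH1 (-0.30 ± 0.12) passed the threshold less far, and with equal sums neither did, at -0.10 (adjusted p = 0.432) and -0.01 (adjusted p = 0.916). By clone FTH1 was at 0.05 ± 0.14 (adjusted p = 0.759) in 1D5 and -0.66 ± 0.14 (adjusted p = 4.99e-04) in 1KI9. The FTH1 call was also lost without any 1 of 9 libraries, among them all 3 FL day-4 libraries, with FL expansion replicate 3 giving the largest adjusted p (0.123). The median over the members was -0.94 and over all genes 0.21. With the median-of-ratios scaling 0 members were higher and 9 lower, and all genes split as 31% and 30.6%. Equal sums gave 64.6% and 11.7%, with 1 member higher (FTL, 0.27) and 7 lower.

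**Figure D5:**
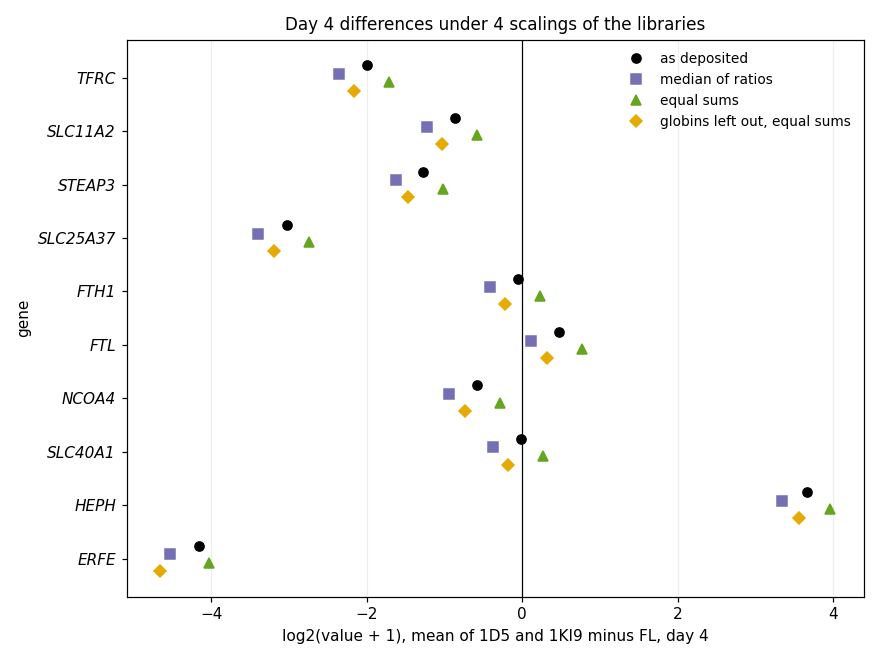
Log2(value + 1) difference at day 4 between the mean of 1D5 and 1KI9 and FL (horizontal axis) for the 10 genes under 4 scalings of the libraries. FTH1 runs from -0.42 to 0.23 and SLC40A1 from -0.38 to 0.27 across 0, while TFRC, SLC11A2, STEAP3, SLC25A37, NCOA4, HEPH, ERFE and FTL stay on 1 side of it.

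Other genes of iron handling, from lists drawn up by pathway, were counted by the same rule, and all list counts stand beside the shares of all genes, 17.5% higher and 8.98% lower in expansion and 51.2% and 14.3% at day 4. Of 9 tested uptake and endosomal genes, 2 were higher and 0 lower in both clones in expansion (0 also at an unadjusted p under 0.05), and 4 were higher and 3 lower at day 4. SLC39A8, a zinc, manganese and iron importer, was at 257 ± 11.3 in FL at day 4 and at 31.5 ± 1.07 and 35.9 ± 2.27 in 1D5 and 1KI9 (mean ± SD, n = 3 each). Its log2 differences were -2.99 ± 0.11 (SE, limma adjusted p = 1.52e-13) and -2.81 ± 0.11 (adjusted p = 2.00e-13), and in expansion, at -0.09 and -0.19, neither passed. SLC39A14, which imports iron not bound to transferrin, was higher at day 4 by 1.51 ± 0.13 (adjusted p = 1.53e-08) and 1.63 ± 0.13 (adjusted p = 3.95e-09), from 2.39 ± 0.236 in FL to 8.70 ± 0.989 and 9.49 ± 0.336. These 2 transporters of 1 family thus lay on opposite sides of FL. The uptake list had a median log2 difference of -0.06 at day 4, beside 0.29 over all genes.

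Of 8 mitochondrial iron genes, 1 was higher and 1 lower in expansion, and 1 was higher and 4 lower at day 4. ABCB10, a mitochondrial transporter that stabilises mitoferrin-1, was at 65.6 ± 3.25 in FL at day 4 and at 16.1 ± 0.838 and 15.3 ± 0.13 in the clones, with log2 differences of -1.96 ± 0.08 (SE, limma adjusted p = 6.36e-13) and -2.03 ± 0.08 (adjusted p = 2.46e-13). TMEM14C, which moves a heme precursor across the mitochondrial membrane, differed by -1.41 ± 0.07 (adjusted p = 5.01e-12) and -1.29 ± 0.07 (adjusted p = 1.10e-11). Of 9 sensing and ferritin-handling genes, 0 passed in both clones in expansion (0 also at an unadjusted p under 0.05), and 5 were higher and 1 lower at day 4, near the 51.2% and 14.3% of all genes. EPAS1, the hypoxia factor HIF-2 alpha, whose message is also controlled by iron regulatory proteins, was at 26.2 ± 1.02 in FL and at 61.7 ± 2.6 and 59.5 ± 0.898 in the clones (adjusted p = 4.97e-08 and 6.31e-08). Of 6 genes of iron and heme export and hepcidin control, 1 was higher and 1 lower in expansion, and 1 was higher and 3 lower at day 4. ABCG2, a heme and porphyrin exporter, had means of 7.45 in FL and 2.46 and 0.913 in the clones in expansion (adjusted p = 1.34e-06 and 4.54e-10), and of 7.74, 1.06 and 0.667 at day 4 (adjusted p = 4.84e-10 and 5.65e-11). BLVRB, a biliverdin reductase of red cells, was at 972 ± 67.3 in FL at day 4 and at 393 ± 38.8 and 380.0 ± 20.8 in the clones (adjusted p = 1.29e-07 and 6.04e-08).

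Since ERFE is a known target of erythropoietin and STAT5, and ferritin of NRF2 and BACH1, the other genes of those lists were counted. Of 8 erythropoietin and STAT5 genes tested at day 4, 1 was higher and 5 lower in both clones, and of 7 in expansion 1 was higher and 1 lower, where 51.2% and 14.3% of all genes were at day 4 and 17.5% and 8.98% in expansion. The receptor itself, EPOR, was at 95.2 ± 5.04 in FL at day 4 and at 26.1 ± 0.235 and 26.5 ± 1.68 in the clones, with log2 differences of -1.82 ± 0.11 (SE, limma adjusted p = 1.54e-10) and -1.81 ± 0.11 (adjusted p = 1.15e-10). CISH, a feedback inhibitor of the pathway, differed by -1.15 ± 0.13 (adjusted p = 5.89e-07) and -1.25 ± 0.13 (adjusted p = 1.63e-07). The cytokine OSM, counted among the 5, was listed at 0 in all expansion libraries and had day-4 means of 1.94 in FL and 0.307 and 0.247 in the clones, so it passed the filter on low values through FL and its difference is a description. In expansion SOCS1, another feedback inhibitor, was higher by 1.66 ± 0.12 (adjusted p = 6.94e-09) and 2.26 ± 0.12 (adjusted p = 2.51e-11), so the list did not lie on 1 side of FL. Of 10 NRF2 and BACH1 targets, 0 were higher (2 at an unadjusted p under 0.05) and 2 lower in expansion, the latter SLC7A11 (-0.97 and -1.16) and SRXN1 (-0.24 and -0.55), and 5 were higher and 2 lower at day 4, near the shares of all genes. At day 4 the malic enzyme ME1 was higher by 1.53 ± 0.07 (adjusted p = 1.26e-12) and 1.37 ± 0.07 (adjusted p = 3.23e-12), and GCLC, the catalytic subunit that starts glutathione synthesis, differed by -1.17 ± 0.10 (adjusted p = 6.82e-09) and -1.42 ± 0.10 (adjusted p = 3.26e-10).

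Genes whose pattern was most like a member's were sought over the 18 libraries after the mean of each condition was taken off. Pearson's r is given as a description, since the points share clone, scaling and library. For TFRC the nearest were ABCB10 (0.990), FZD5 (0.986) and PCGF5 (0.986), and for SLC25A37 they were SLC30A10 (0.990), TGM2 (0.990) and the red cell membrane protein EPB42 (0.988). For HEPH they were GSTM3 (0.994), KIAA1671 (0.993) and TMSB10 (0.992), and for ERFE they were NKX1-2 (0.997), SEC14L4 (0.984) and SLC1A5 (0.982). Among the members themselves r was 0.98 between TFRC and STEAP3, 0.96 between TFRC and SLC25A37, -0.80 between TFRC and HEPH, -0.71 between TFRC and FTL and -0.07 between TFRC and FTH1.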

How the data were processed

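Poly(A) RNA sequencing values of 18 HUDEP1 libraries were used from 1 deposited table. Trim Galore 0.60, STAR 2.7, RSEM 1.31 and the build hg38 (GRCh38.p12) are named in the submitters' processing notes. The authors deposited the expansion values as TPM (sums 943734 to 950736 per library). The deposited day-4 values are a TPM-like signal whose sums, 814583 to 1081251, exceed the TPM total in the 3 FL libraries, so a further scaling was applied, whose method was not given in the sources used. The design had assumed TPM throughout, and the same log-scale test was kept. TPM keeps no depth, so no counting intervals are given.

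Values were tested as log2(value + 1) in R 4.3.3 by limma 3.58.1 over all 18 libraries, with 1 mean per group and a trend of variance on expression. The fit held the 11110 genes that reached 1 in 3 or more libraries. Genes at 0 throughout a condition (68 in expansion, 27 at day 4) did not enter comparisons involving it. P-values were adjusted by Benjamini-Hochberg over all genes tested, with a threshold of 0.05, and the fit was tested on simulated data. Folds are ratios of mean deposited values. The labels do not say whether replicates were separate cultures, so p-values measure the spread between libraries, which may be technical. Gene coordinates and UTRs are from GENCODE 29 and the windows before start sites from RefSeq (GRCh38.p14). Alternatives changed the pseudocount, the filter, the scaling, the variance model, the libraries fitted and the grouping of the clones.

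The members and lists were chosen with earlier results of these data known. All 10 members are named. From the other iron lists, genes called in both clones with a log2 difference of at least 1 in each are named, up to 5 per list and condition. From the erythropoietin and NRF2 lists up to 3 of the largest calls are named, and the 3 genes most like TFRC, SLC25A37, HEPH and ERFE.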

Additional observations from a re-analysis of the deposited data

Results flagged for a closer look

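The difference between the GATA1s clones and FL itself changed between conditions for 9 members, by limma's test of the interaction (the mean of the clones minus FL at day 4, less the same in expansion, on the log2 scale). For uptake the values were -1.51 for TFRC (adjusted p = 1.67e-07), -0.96 for SLC11A2 (adjusted p = 1.61e-06), -0.91 for STEAP3 (adjusted p = 2.89e-07) and -1.94 for SLC25A37 (adjusted p = 1.60e-05). For storage they were -0.30 for FTH1 (adjusted p = 0.0338, lost without any 1 of 9 libraries; 0.05 in 1D5 and -0.66 in 1KI9) and -1.12 for NCOA4 (adjusted p = 3.96e-09). For export and signalling they were -0.39 for SLC40A1 (adjusted p = 0.00344), -0.70 for HEPH (adjusted p = 3.52e-04, with -0.12 in 1D5 and -1.29 in 1KI9) and -1.91 for ERFE. ERFE, counted among the 9, passed the filter on low values through its FL libraries, so its value is a description. Over all genes the median was 0.21. Without FL expansion replicate 1 the values were -1.63 for TFRC, -2.33 for SLC25A37 and -2.43 for ERFE. With 3 libraries per group no single library was tested as an outlier.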

How the results depend on the processing

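Of 278 counts recomputed under alternatives, 253 stayed within 1.5 times. Single-gene values were tallied only for the mean of the clones minus FL in each condition and for the interaction of that mean. Of 640 such values 613 kept direction and side of the threshold, 19 lost the threshold, 5 gained it and 3 turned. Single-gene values of each clone, of 1KI9 against 1D5 and of day 4 against expansion were not in this tally. Fitting only the compared libraries left 1 member higher and 1 lower in both clones in expansion, 2 lower in 1KI9 against 1D5 in expansion and 4 lower for day 4 against expansion in 1D5. Treating the GATA1s libraries as 1 group gave 4 higher in expansion. Adding 0.1 in place of 1 gave 2 lower in 1KI9 against 1D5 in expansion. The median-of-ratios scaling gave 1 higher than FL at day 4, 3 lower in 1KI9 against 1D5 in expansion, and for day 4 against expansion 0 lower in FL and 1 lower in 1KI9. Equal sums gave, in 1KI9 against 1D5, 0 lower in expansion and 3 higher at day 4. They also gave 1 lower for day 4 against expansion in 1KI9 and 1 positive interaction. With globins left out, 0 members fell in FL, 1 in 1D5 and 1 in 1KI9. Leaving out a replicate gave 2 to 4 lower members in expansion and 0 to 2 lower in 1KI9 against 1D5 in expansion. With equal sums FTH1 turned to 0.23 and SLC40A1 to 0.27 at day 4, and the interaction of FTL turned to 0.27. Apart from the libraries fitted, the cause was not tested. With 3 libraries per group, small differences such as those of FTH1 are near what the spread allows.

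Same-numbered replicates did not deviate together in every pair: 12 of 45 same-number correlations exceeded 0.1 (range -0.133 to 0.424), and 11 of 18 libraries correlated best with their own number. Each library had 3 numbers to match, and correlations between libraries of different number ranged from -0.436 to 0.277. With the replicate block, 4 members were lower in expansion and 6 at day 4, as without it, and 3 rather than 2 fell in 1D5.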
